A study of Mus musculus with 6 samples.

Results

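Mitochondrial ribosomal protein genes are nuclear genes whose products are made in the cytosol, imported and built into the ribosome of the mitochondrion. That ribosome has a small and a large subunit and translates the few messages of mitochondrial DNA, all of which encode core subunits of the respiratory chain and of ATP synthase. Some of its proteins have a bacterial homologue, and others were added in the mitochondrial lineage. The genes are transcribed by RNA polymerase II (Pol II), and reads from an antibody to RPB1 (POLR2A), its largest subunit, show where the enzyme sat on them. The members described here were the genes whose symbol is Mrpl or Mrps followed by a number and at most 1 letter, which gave 75 of the 12107 genes with values. By their known roles, 26 encode small subunit proteins and 48 encode large subunit proteins, 2 of which (Mrps18a and Mrps30) carry an Mrps name. Mrps36 belongs to neither subunit, since its product is a component of the alpha-ketoglutarate dehydrogenase complex. Mrpl33, Mrpl35 and Mrpl47 were not analysed here.

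The chromatin came from neural stem cells, called neural precursor cells (NPCs) in the study, which were taken from e13.5 ganglionic eminences and cultured as second-passage neurospheres. The labels give the strain as 129 sv X CD1, while the study's methods name a CD1 x C57BL/6 F1 background for the mice, and the difference was not resolved. Fetuses were WT (3 libraries) or Armc5(-/-) (KO, 3 libraries), and the libraries form 3 biological replicate pairs that share a number. ARMC5 is a protein with armadillo repeats and a BTB domain, and the comparison asks how Pol II was distributed over genes when it was absent. Armc5 itself was not analysed here, so the labels were not checked against it. No input or control-antibody library was used here, so every density includes whatever reads an unenriched sample would give. Such cultures mix cells, and fewer cells using a gene cannot be told apart from less Pol II per cell.

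Reads were counted in 3 windows per gene: the promoter (400 bases before to 100 bases after the start site), the gene body (from there to 100 bases before the end) and the TES region (100 bases before to 2000 bases after the transcription end site). Counted reads per library ran from 14528870 to 25199455. Levels below are densities, that is CPM (a window's share of the library's reads) after TMM scaling, a trimmed-mean scaling between libraries, divided by the window's length in kb. The pair 3 libraries stood apart, with 6.04% (WT 3) and 6.88% (KO 3) of their reads in promoters against 10.9 to 12.2% in the other 4. For the members, promoters held 15.6% of their reads in WT 3 and 14.3% in KO 3, against 22.8 to 23.9% in KO 1, KO 2 and WT 1 and 24% in WT 2. All 7 neural precursor markers looked for were among the genes, with gene body densities of 2.58 to 22.7, and 4 of 6 ganglionic eminence markers were, at 1.60 to 28.5. Of neuron markers 4 of 5 were listed (0.696 to 1.95), of astrocyte markers 2 of 4 (1.64 to 3.14), of endothelial and mural markers 1 of 4 (Kdr, 0.667), and of microglia and blood markers 0 of 5. None of these markers was called between KO and WT.

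The members were short genes in crowded places. Their median gene length was 7.81 kb, from 0.789 kb (Mrpl34) to 122 kb (Mrps28), against 24.3 kb over all genes. They lay on 17 chromosomes and none on X or Y. A protein-coding neighbour started upstream on the opposite strand within 1000 bases of 18 members (24%), against 11.4% of all genes. Nuclear genes for respiratory chain subunits were alike in both traits, with a median length of 7.37 kb and 24.3% with such a neighbour. The promoter windows of all these members but Mrpl41, whose neighbour Pnpla7 starts 935 bases away, overlap another gene, so reads there cannot be assigned to either. Examples are Mrps12 with Sars2, Mrps18b with Ppp1r10, Mrps18c with Helq, Mrpl49 with Fau and Mrps27 with Ptcd2. Mrps11 and Mrpl46 overlap each other, so their promoter values are not independent. By the annotated starts each starts downstream of the other's start, so neither is among the 18. The nearest RefSeq start lay 442 bases after the annotated start in Mrpl46 and 12 in Mrps11. RefSeq starts were not used for this count. Only 34 of 75 promoter windows, 26 gene bodies and 40 TES regions were free of overlap with another annotated gene.

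RefSeq promoter sequences (GRCm38.p6) whose start lay within 100 bases of the annotated gene start were matched to 50 members. The 150 bases before the start are shown for the 3 members with the highest promoter density (Mrps6, Mrpl41, Mrpl12), for Mrpl20, which has the lowest density of those matched, for the highest promoter to body ratio (Mrps27), for the highest gene body density (Mrpl53), and for carriers of an NRF1 (Mrpl9) and a YY1 (Mrps11) motif. They lie at chr16:92058186-92058335 (plus strand), chr2:24975099-24975248 (minus strand), chr11:120484487-120484636 (plus strand), chr4:155802728-155802877 (plus strand), chr13:99344636-99344785 (plus strand), chr6:83108958-83109107 (plus strand), chr3:94443186-94443335 (plus strand) and chr7:78782981-78783130 (plus strand). Each reads 5′ to 3′ on the gene's strand, and capitals mark a motif from the list below.

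Mrps6: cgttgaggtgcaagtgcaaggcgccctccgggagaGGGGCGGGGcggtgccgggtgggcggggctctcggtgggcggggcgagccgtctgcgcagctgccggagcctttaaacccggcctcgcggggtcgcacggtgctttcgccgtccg
Mrpl41: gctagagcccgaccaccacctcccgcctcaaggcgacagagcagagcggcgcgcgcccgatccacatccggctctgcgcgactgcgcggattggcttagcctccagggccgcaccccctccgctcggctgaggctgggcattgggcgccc
Mrpl12: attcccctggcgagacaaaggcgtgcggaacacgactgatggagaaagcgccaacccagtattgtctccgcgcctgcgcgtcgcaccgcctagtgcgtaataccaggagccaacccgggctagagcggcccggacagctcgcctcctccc
Mrpl20: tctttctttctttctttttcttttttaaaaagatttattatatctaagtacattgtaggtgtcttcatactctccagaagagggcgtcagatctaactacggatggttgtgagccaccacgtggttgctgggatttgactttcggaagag
Mrps27: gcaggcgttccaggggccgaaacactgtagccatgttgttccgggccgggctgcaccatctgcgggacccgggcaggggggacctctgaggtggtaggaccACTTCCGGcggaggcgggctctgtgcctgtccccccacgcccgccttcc
Mrpl53: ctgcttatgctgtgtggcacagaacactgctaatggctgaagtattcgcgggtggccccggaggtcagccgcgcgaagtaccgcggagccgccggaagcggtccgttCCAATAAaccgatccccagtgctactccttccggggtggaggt
Mrpl9: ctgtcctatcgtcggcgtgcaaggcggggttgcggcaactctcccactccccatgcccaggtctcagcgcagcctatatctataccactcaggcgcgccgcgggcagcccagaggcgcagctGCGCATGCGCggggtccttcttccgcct
Mrps11: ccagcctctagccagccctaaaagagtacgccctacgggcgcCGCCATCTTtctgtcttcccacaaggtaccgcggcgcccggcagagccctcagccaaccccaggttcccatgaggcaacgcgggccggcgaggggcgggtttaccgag

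The first 3 held 75.3%, 72.7% and 64.7% G and C in these bases, and Mrpl20 held 38.7%. These 6 motifs were searched on both strands of the 300 bases around the start, and matches could overlap. The NRF1 core CGCATGCGC, bound by a regulator of nuclear genes for mitochondria, was in 5 of 50 members (10%, against 4.53% of the 7513 promoters matched over all genes). The YY1 motif AAGATGGCG was in 5 members (10%, against 3.61%), and the ETS motif CCGGAAGT was in 7 (14%, against 9.29%). In related groups, NRF1 was in 14% of 50 respiratory chain promoters and 4.65% of 43 cytosolic ribosomal protein promoters, and ETS was in 8% and 18.6%. The motif CCAATNA was in 11 members (22%, against 18.9%) and the SP1 motif GGGGCGGGG in 7 (14%, against 24.5%). The letters TATAAA were in 2 (4%, against 6.16%), Mrpl16 and Mrps17. Median GC content over the 300 bases was 58.5% in members and 61.7% over all.

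Promoter density spanned more than an order of magnitude among the members. Their median in each library was 1.22 to 1.38 times that of all genes. Cytosolic ribosomal protein genes, which build the ribosome of the cytosol, stood at 1.81 to 2.59 times, and nuclear genes for respiratory chain subunits at 1.22 to 1.42 times. In each library the members' promoter median therefore lay below that of the cytosolic ribosomal protein genes, and near that of the respiratory chain genes.

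**Figure D1:**
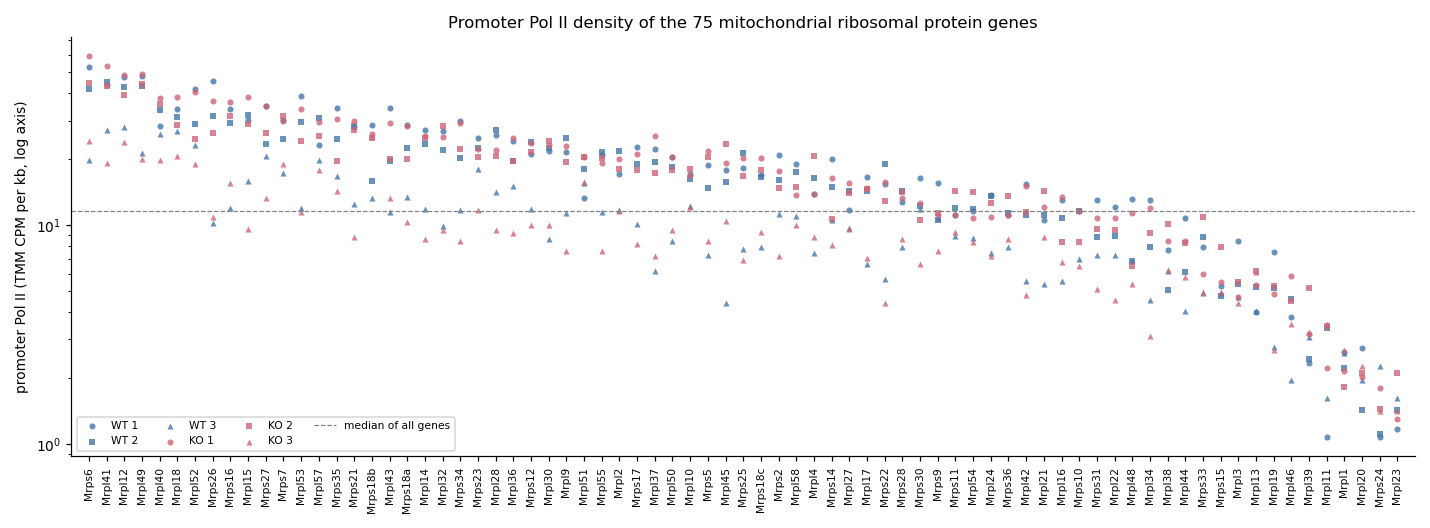
Promoter Pol II density (TMM-scaled CPM per kb, log axis) of the 75 members in the 6 libraries, ordered by their mean, with blue for WT, red for KO and symbols for the pair. WT and KO points of a pair lie close together for most members, the triangles of pair 3 lie low for most members above the dashed all-gene median, and the order runs from Mrps6 to Mrpl23.

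Mrps6, a small subunit protein with a bacterial homologue, had the highest promoter density, at 52.5, 41.9 and 19.8 in WT 1 to 3 and 59.1, 44.6 and 24.2 in KO 1 to 3. Its promoter window overlaps Slc5a3 and Gm49711, whose reads cannot be told apart from its own. Mrpl41, a mitochondria-specific large subunit protein, followed with 43.9, 45.2 and 27.3 in WT and 53.4, 43.3 and 19.3 in KO. Mrpl12, of the stalk that recruits translation factors, had 47.6, 42.8 and 27.9 in WT and 48.6, 39.1 and 23.9 in KO. The ranges of these members overlapped, so their order among themselves is not set, and their means were at percentiles 97.4, 97 and 96.8 of all genes. At the other end, Mrpl23 had 1.17, 1.42 and 1.62 in WT and 1.30, 2.11 and 1.42 in KO. Mrps24 had 1.07, 1.11 and 2.27 in WT and 1.80, 1.44 and 1.42 in KO, and Mrpl20 had 2.73, 1.42 and 1.95 in WT and 2.02, 2.11 and 2.27 in KO. These 3 rest on 10 to 28 reads per library, and their promoter windows had less Pol II per kb than their gene bodies in all 6 libraries. For Mrps24 the nearest RefSeq start was 7979 bases from the annotated gene start and for Mrpl23 346 bases, while for Mrpl20 they coincided.

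Gene body density was 1.29 to 1.78 times the all-gene median in each library, against 3.87 to 8.37 times for the cytosolic ribosomal protein genes and 1.41 to 2.38 times for the respiratory chain genes. Within a length class the members were nearer to all genes. Members under 10 kb had a median of 2.66, as did all genes under 10 kb, and longer members had 1.45 against 1.25. The highest were the mitochondria-specific Mrpl53 (mean 16.5), Mrpl41 (9.33) and Mrps34 (8.46), which are short: Mrpl53 spans 0.900 kb and Mrpl41 0.982 kb. Mrpl53 read 23.9, 19.4 and 10.6 in WT and 20.4, 14.4 and 10.4 in KO, which is lower in KO in each pair. Its gene body overlaps Gm42688 and a counted window of Ccdc142, and that of Mrps34 overlaps Mapk8ip3 and Nme3. Reads there cannot be told apart from their own. The lowest were Mrps28 (1.04), Mrps9 (1.06) and Mrps27 (1.15), which span 122, 54.5 and 70.8 kb. Mrps28 read 0.863, 0.945 and 1.39 in WT and 0.832, 0.966 and 1.24 in KO. The order of levels was shared between libraries, with Spearman's rho over the 75 members of 0.814 to 0.969 for promoters, 0.892 to 0.977 for gene bodies and 0.692 to 0.933 for TES regions. This is a description across genes, which share windows and depth within a library.

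**Figure D2:**
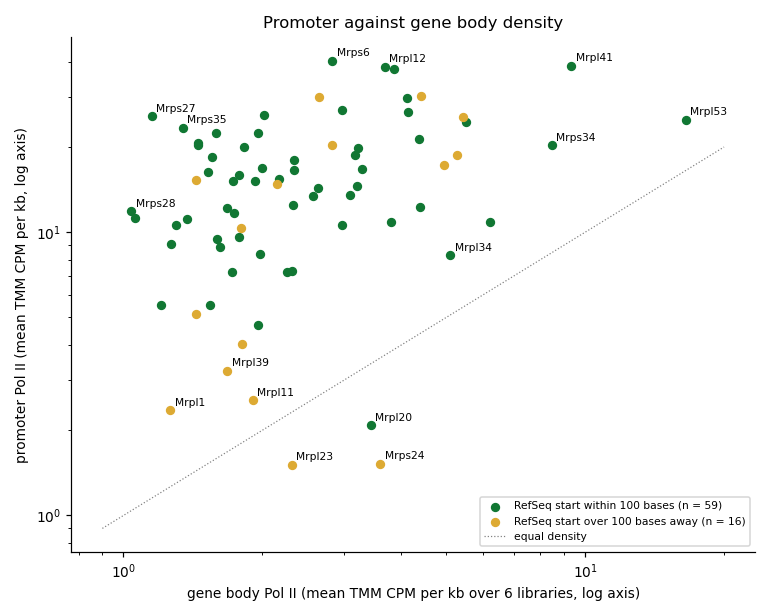
Mean promoter density against mean gene body density over the 6 libraries for the 75 members (both axes log, TMM-scaled CPM per kb), coloured by the distance of the nearest RefSeq start, with the dotted line at equal density. All but Mrpl20, Mrpl23 and Mrps24 lie above the line, and the members low on the promoter axis are mostly those with a distant RefSeq start.

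The ratio of promoter to gene body density, which the study's pausing index resembles, had a median over members of 7.05, 7.06 and 4.37 in WT and 6.68, 6.23 and 3.69 in KO. Relative to the all-gene median these were 0.848, 0.825 and 1.02 in WT and 0.754, 0.723 and 0.893 in KO, lower in KO in each pair. The level differed by gene length. Members under 10 kb had a median ratio over the 6 libraries of 5.38, against 3.73 for all genes under 10 kb. Members of 10 kb or more had 8.46, against 9.08 for all genes of that length. Small subunit members had a median ratio of 7.35 and large subunit members of 5.25. Mrps27, a mitochondria-specific small subunit protein, had the highest ratio, at 35.4, 23.2 and 13.9 in WT and 36.8, 25.9 and 9.24 in KO. Mrps35 followed with 25, 22.5 and 12.1 in WT and 21.7, 16.2 and 8.93 in KO. Mrps6 came next by its mean of 16.6, but ranged from 9.03 in WT 1 to 27.0 in KO 2. The pair 3 libraries were the lowest of their group for Mrps27 and Mrps35, and the groups overlapped for all of these. The Mrps27 promoter window overlaps Ptcd2 and that of Mrps6 overlaps Slc5a3 and Gm49711, whose reads are counted in these ratios. That of Mrps35 is free of overlap.

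No member was called between KO and WT. The test was limma-voom across all 36321 windows with the pair as a block, Benjamini-Hochberg adjustment over all of them and windows with an adjusted p under 0.1 were called. In promoters 0 of 75 members were called, with a smallest adjusted p of 0.508, where 0.173% of all promoters were called. In gene bodies 0 were called (smallest 0.437, background 0.206%), and in TES regions 0 (smallest 0.478, background 0.0248%). For the promoter to body ratio, tested with limma on its log2 value, 0 were called (smallest 0.282, background 0.0331%). edgeR's quasi-likelihood test and DESeq2 with the same block also called 0 members in the 3 windows, DESeq2 giving an adjusted p to 59, 74 and 34 of them. At these backgrounds fewer than 1 call among 75 genes would be the rate of all genes, so the absence of calls does not set the members apart.

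At an unadjusted p under 0.05, 3 member promoters were higher in KO (4% of members, against 7.55% of all genes) and 3 were lower (4%, against 2.4%). In gene bodies 4 were higher (5.33%, against 4.82%) and 2 lower (2.67%, against 3.59%). In TES regions 0 were higher (background 1.4%) and 5 lower (6.67%, against 4.84%). For the ratio 4 were higher (5.33%, against 7.05%) and 9 lower (12%, against 3.65%). Log2 fold changes were above 0 in 33 promoters (44%, against 54.8%), 48 gene bodies (64%, against 45.3%), 24 TES regions (32%, against 34.4%) and 28 ratios (37.3%, against 51.1%). The median log2 fold change of the members was -0.02 in promoters (0.03 over all genes), 0.04 in gene bodies (-0.01 over all), -0.07 in TES regions (-0.08 over all) and -0.12 for the ratio (0.01 over all).

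In gene bodies 28 members were higher in KO in all 3 pairs (37.3%, against 13.7% of all genes) and 8 lower in all 3 (10.7%, against 16.9%). Medians by pair were 0.01, 0.09 and 0.08, each above the all-gene median of that pair (-0.02, 0.02 and -0.04). Gene length moved with this: all 2975 genes under 10 kb had a median of 0.06, and 27.7% of them were higher in all 3 pairs, and the part of length in the members' values was not tested. Within that length class the 53 members had a median of 0.09 and 45.3% higher in all 3 pairs, while the 22 longer members had -0.02 and 18.2%. The cytosolic ribosomal protein genes had 44.7% higher in all 3 pairs and the respiratory chain genes 21.1%. Library totals gave 29 members higher in all 3 pairs and 6 lower (38.7% and 8%, against 17.7% and 12.1% of all genes), with a median of 0.06. TMM within gene bodies gave 27 and 8 (36% and 10.7%, against 13.7% and 17.9%), with a median of 0.04. TMM factors from the gene bodies of lowest signal gave 12 higher and 17 lower (16% and 22.7%, against 5.28% and 41.2%). There 31 members were above 0 and the median became -0.05, so the sign depends on the scaling.

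In promoters 14 members were higher in all 3 pairs (18.7%, against 18%) and 15 lower (20%, against 13.4%), with pair medians of -0.01, 0.03 and -0.07. Library totals gave 17 higher and 12 lower (22.7% and 16%, against 19.8% and 11.7% of all genes). TMM within promoters gave 10 and 18 (13.3% and 24%, against 16.6% and 17.3%). TMM on gene bodies of lowest signal gave 6 and 26 members (8% and 34.7%, against 11.7% and 23.9% of all genes). In TES regions 6 were higher (8%, against 7.86%) and 19 lower (25.3%, against 20.8%). TMM within the TES windows alone gave 13 higher and 9 lower (17.3% and 12%, against 13.1% and 13.6%), 39 members above 0 and a median of 0.01. TMM on gene bodies of lowest signal gave 3 and 30 (4% and 40%, against 3.75% and 30%). The ratio, which no library scaling can move, was higher in all 3 pairs for 14 members (18.7%, against 17.9%) and lower for 25 (33.3%, against 14.7%). Its pair medians were -0.00, -0.11 and -0.15 on the log2 scale, against 0.10, -0.02 and -0.08 over all genes. Among all genes under 10 kb 23.5% were lower in all 3 pairs, and among the members under 10 kb 39.6%. By the same ratio, 31.6% of cytosolic ribosomal protein genes and 23.7% of respiratory chain genes were lower in all 3 pairs. Their median differences were -0.08 and -0.05. Without pair 3 the median member ratio difference was -0.04 and without pair 1 it was -0.14.

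**Figure D3:**
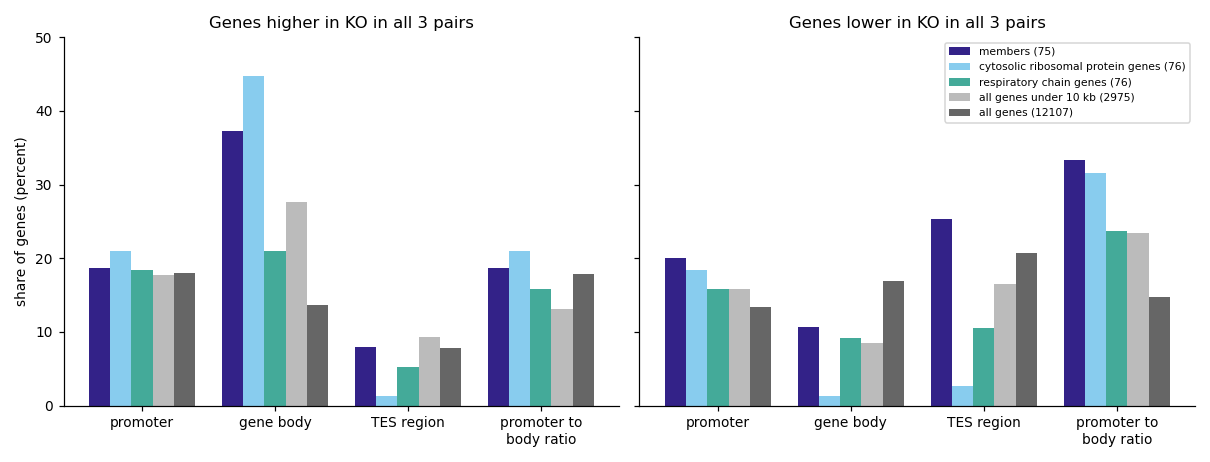
Share of genes (percent) whose value was higher (left) or lower (right) in KO in all 3 pairs, for the members, 2 related gene groups, all genes under 10 kb and all genes. The members' bar reaches 37.3% for higher gene bodies and 33.3% for lower ratios, beside 13.7% and 14.7% of all genes and 27.7% and 23.5% of genes under 10 kb. Those of the cytosolic ribosomal protein genes reach 44.7% and 31.6%, and those of the respiratory chain genes 21.1% and 23.7%.

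Of the single members, Mrpl34 had the smallest p in gene bodies and in the ratio. It encodes a large subunit protein with a bacterial homologue and is the shortest member, at chr8:71464959-71465747 (plus strand, GRCm38). Its gene body density was 4.89, 4.03 and 3.17 in WT and 6.78, 7.41 and 4.33 in KO. It was higher in KO in each pair and the groups overlapped only by WT 1 over KO 3. The log2 fold change was 0.63 ± 0.20 (SE, adjusted p = 0.437), on 23 to 111 reads. Its promoter to body ratio was 2.66, 1.96 and 1.43 in WT (2.02 ± 0.613, SD, n = 3) and 1.76, 1.24 and 0.720 in KO (1.24 ± 0.521, n = 3). The log2 ratio differed by -0.74 ± 0.20 (adjusted p = 0.282), and when only genes averaging 50 or more counts per window were tested, which leaves 68 members, it was called (adjusted p = 0.0843). Its promoter alone gave -0.04 ± 0.19.

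Mrps30, a large subunit protein despite its name, and Mrpl28, a large subunit protein with a bacterial homologue, had both a lower promoter and a lower ratio. Mrps30 promoters read 16.4, 12.3 and 11.9 in WT and 12.6, 10.6 and 6.65 in KO, with a log2 fold change of -0.42 ± 0.17 (adjusted p = 0.544). Its ratio was 8.28, 8.79 and 7.32 in WT and 6.56, 6.17 and 3.69 in KO. Every KO ratio of Mrps30 lay below every WT ratio, by -0.61 ± 0.19 on the log2 scale (adjusted p = 0.309). Mrpl28 promoters read 25.7, 27.2 and 14.1 in WT and 22.1, 20.6 and 9.49 in KO, with -0.35 ± 0.13 (adjusted p = 0.508), and its ratio difference was -0.55 ± 0.19 (adjusted p = 0.342). Its promoter and ratio were lower in KO in each pair, and its WT 3 promoter lay below those of KO 1 and KO 2. The Mrps30 windows overlap B430218F22Rik and the Mrpl28 promoter overlaps Tmem8, whose reads cannot be told apart from theirs. Mrps14, a small subunit protein, had promoters of 20.0, 15.0 and 10.6 in WT and 16.4, 10.6 and 8.07 in KO (-0.38 ± 0.15, adjusted p = 0.539).

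Mrpl45 went the other way. It encodes a mitochondria-specific large subunit protein that anchors the ribosome to the inner membrane, and it lies at chr11:97315716-97329920 (plus strand). Its promoter read 17.9, 15.7 and 4.39 in WT and 19.1, 23.6 and 10.5 in KO, with 27 reads in WT 3 and 74 in KO 3. It was higher in KO in each pair, and WT 1 and WT 2 exceeded KO 3. The log2 fold change was 0.47 ± 0.18 (adjusted p = 0.512), while its gene body was level, at 0.00 ± 0.09. Without pair 1 the promoter gave 0.73 (adjusted p = 0.0878) and the ratio 0.93 (adjusted p = 0.0720), both called. The fit of windows without pair 1 called 382 of all 36321, against 49 with all libraries. Mrps18b, 1 of 3 paralogues (Mrps18a, Mrps18b, Mrps18c) of a bacterial small subunit protein, was also called at its promoter without pair 1. Its promoter read 28.8, 15.8 and 13.3 in WT and 26.1, 25.1 and 25.6 in KO, lower in KO in pair 1 and higher in the others. The log2 fold change was 0.38 ± 0.18 (adjusted p = 0.621), and without pair 1 it was 0.78 (adjusted p = 0.0215). The Mrps18b promoter window overlaps Ppp1r10, which starts 45 bases away on the other strand, so its reads are shared. Of its paralogues, Mrps18a gave -0.13 ± 0.13 and Mrps18c 0.19 ± 0.14 in promoters.

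**Figure D4:**
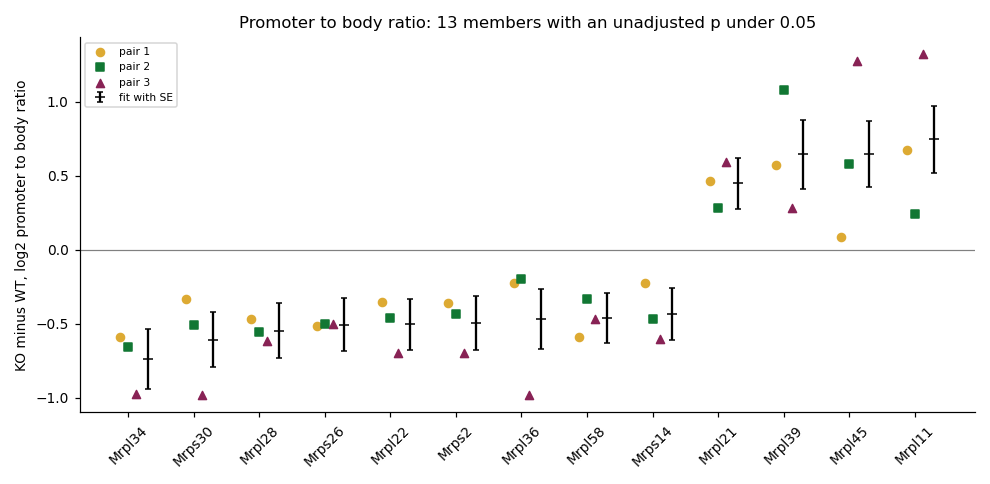
KO minus WT difference of the log2 promoter to body ratio in each pair (symbols) and the fitted difference with its SE (black), for the 13 members with an unadjusted p under 0.05. The 9 members on the left are below 0 in all 3 pairs and the 4 on the right above 0 in all 3, and none passed the adjustment over all genes.

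The other ratio differences with an unadjusted p under 0.05 were in Mrpl22, Mrps26, Mrps2, Mrpl58, Mrps14 and Mrpl36 (lower) and in Mrpl11, Mrpl39, Mrpl21 and Mrpl45 (higher). Mrpl22, Mrpl58, Mrpl36, Mrpl39 and Mrpl21 are named for that count after their values were seen. Mrpl11, part of the GTPase-associated centre, had a ratio of 0.624, 1.59 and 0.846 in WT and 1.02, 1.87 and 2.17 in KO. Its log2 difference was 0.74 ± 0.23 (adjusted p = 0.303), and its promoter rests on 10 to 43 reads. The groups overlapped, and KO was higher in each pair. The nearest RefSeq start lay 159 bases after the annotated start in Mrpl11, 141 in Mrpl21 and 498 in Mrpl39. There it fell in the gene body window, as it did for Mrpl36 (2496 bases), while for Mrpl45 they coincided. The part of this in the ratios was not tested. Mrpl39 and Mrps5 completed the promoters with an unadjusted p under 0.05, at 0.62 and 0.32, and Mrpl30 and Mrpl36 the gene bodies, at 0.28 and 0.24. The RefSeq start of Mrps5 lay 204 bases after the annotated start, so its promoter window, like that of Mrpl39, does not include it.

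In gene bodies, Mrps26, a mitochondria-specific small subunit protein, read 3.23, 2.50 and 2.17 in WT and 3.72, 2.98 and 3.28 in KO. It was higher in KO in each pair, by 0.31 ± 0.12 (adjusted p = 0.534). Mrpl24, a large subunit protein, read 5.34, 3.69 and 3.38 in WT and 4.18, 3.29 and 2.86 in KO, lower in each pair by -0.27 ± 0.11 (adjusted p = 0.578), in a window that overlaps Rrnad1. Mrps6 read 5.82, 1.60 and 1.97 in WT and 4.02, 1.65 and 1.93 in KO. The pair 1 libraries were far above the other 4, and without pair 1 its log2 fold change of -0.25 ± 0.09 (adjusted p = 0.508) became 0.02, while without KO 2 it was -0.41 and called (adjusted p = 0.0408). The Mrps6 body contains Slc5a3, a transporter gene on the same span, and reads cannot be assigned to either.

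In TES regions the smallest p belonged to Mrps35, a mitochondria-specific small subunit protein. It read 2.26, 1.45 and 1.70 in WT and 1.22, 1.05 and 1.45 in KO, lower in each pair by -0.58 ± 0.21 (adjusted p = 0.478). The KO 3 and WT 2 values were level at the digits shown, and the window overlaps Mansc4. Mrpl20 gave -0.38 ± 0.16, Mrps2 -0.35 ± 0.15, Mrps6 -0.42 ± 0.18 and Mrpl37, named for the count after its value was seen, -0.33, with adjusted p of 0.572 or more. Mrps12, of the decoding centre, gave a promoter log2 fold change of -0.04 ± 0.14, Mrpl12 -0.08 ± 0.10 and Mrps36 0.13 ± 0.16.

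The distance between the annotated start and the nearest RefSeq start split the promoter values. In 59 members the starts lay within 100 bases, and in 16 they were further apart. The 16 had a median promoter log2 fold change of 0.21, with 81.3% above 0, 7 higher in all 3 pairs and 0 lower in all 3. The 59 had a median of -0.05, with 33.9% above 0. For the ratio the medians were 0.25 and -0.16. The same split over all genes gave promoter medians of 0.13 (2189 genes with a distant start) and 0.01 (9536 genes), and ratio medians of 0.13 and -0.01. Mean promoter density had a median of 12.6 in the 16 members and 15.2 in the 59, and of 6.97 and 12.6 in the genes as a whole. This split was made after the data had been seen and carries no test, and the 16 include low windows such as Mrps24, Mrpl23, Mrpl1 and Mrpl11 and high ones such as Mrpl40 and Mrpl18.

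**Figure D5:**
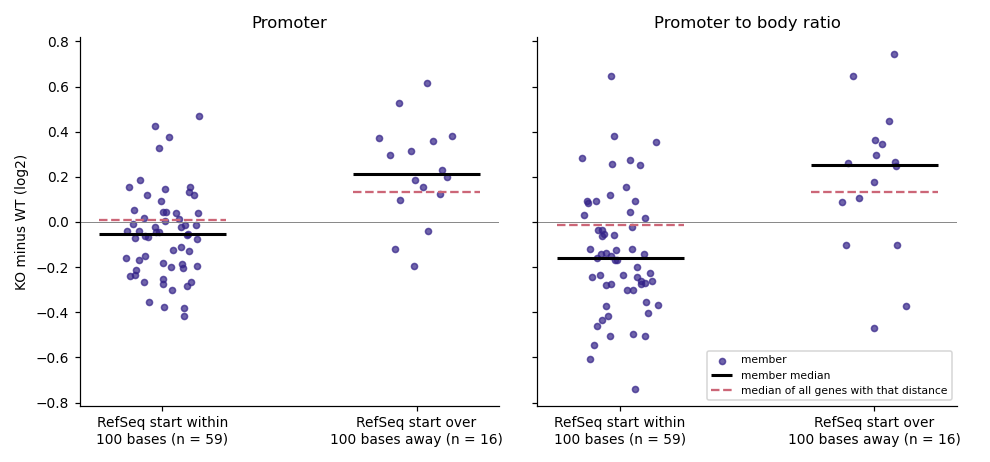
KO minus WT log2 fold change of promoters (left) and of the promoter to body ratio (right) for each member, by the distance of the nearest RefSeq start, with the member median (black) and the median of all genes at that distance (dashed). The 16 members with a distant start have medians of 0.21 and 0.25, the other 59 have -0.05 and -0.16, and all genes shift the same way by less.

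By role, promoter medians were -0.05 in small and -0.02 in large subunit members, gene body medians 0.02 and 0.09, and ratio medians -0.14 and -0.12. Gene bodies were higher in KO in all 3 pairs for 26.9% of small and 43.8% of large subunit members, a difference that was not tested. Members with a bacterial homologue and mitochondria-specific members gave ratio medians of -0.10 and -0.12. The 18 members with a divergent neighbour had a promoter median of 0.04, with 72.2% above 0, against -0.07 and 35.1% in the other 57. Over all genes 54.8% of promoters were above 0, and this split was not made over all genes. Of the 18, all but Mrpl41 share their promoter window with another gene. Many of the 57 do too, such as Mrps11, Mrpl46, Mrpl13, Mrpl14 and Mrps6, since only 34 of the 75 promoter windows were free of overlap. Mrpl32, Mrpl40, Mrpl51, Mrps18c and Mrps5, which are among the 18, also have a distant RefSeq start. The part of shared windows or start distance in this difference was not tested. The pair differences of single members resembled each other weakly, with Pearson's r across the 75 members of 0.14 to 0.37 for promoters, 0.14 to 0.38 for gene bodies, -0.06 to 0.17 for TES regions and 0.23 to 0.56 for the ratio. The highest r was between pairs 2 and 3 for promoters, gene bodies and the ratio, and between pairs 1 and 3 for TES regions. These values are descriptions across genes that share libraries.

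Genes that act with the mitochondrial ribosome were read out of the same fits, and none was called in any window. Of 5 mitochondrial ribosomal proteins without an Mrp symbol, Aurkaip1 had the smallest p, with a promoter log2 fold change of 0.43 ± 0.20 (adjusted p = 0.598). Of 15 translation factors it was Mrrf, the ribosome recycling factor, with -0.18 ± 0.07 in the gene body (adjusted p = 0.522). Of 22 genes for assembly and rRNA modification it was Nsun4, an rRNA methyltransferase, with 0.47 ± 0.18 at the promoter (adjusted p = 0.515). The 20 genes that charge mitochondrial tRNAs had median log2 fold changes of -0.01 in promoters, -0.00 in gene bodies and -0.04 in TES regions. Of 5 transcription genes it was Tefm, an elongation factor, with 0.21 ± 0.11 in the gene body (adjusted p = 0.662). Of 8 regulators it was Myc, a transcription factor for growth genes, with 0.43 ± 0.14 at the promoter (adjusted p = 0.437). Myc was called without WT 1 or KO 1 (adjusted p = 0.0524 and 0.0516), but not without pair 1. The fits without WT 1 or KO 1 called 545 and 546 of all windows, against 49 with all libraries. Median promoter changes of these lists ran from -0.14 (translation factors) to 0.37 (proteins without an Mrp symbol).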

How the data were processed

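POLR2A ChIP-seq of 3 WT and 3 KO NPC libraries was analysed from tables the authors deposited. Per the study's methods and the submitters' processing notes, reads were demultiplexed with bcl2fastq 2.20, trimmed with Trimmomatic, aligned with BWA to GRCm38 (mm10), handled with Picard and counted with HOMER per gene window, and MACS2, edgeR and limma are also named. The deposited counts are raw read counts per window, and the deposited log2 values are log2 CPM after TMM and voom, used here only as an alternative. Genes without signal in KO had been removed by the authors. The gene annotation behind the windows was not stated in any source read here. Gene records of GENCODE vM21 were used for positions and lengths, since their lengths followed the gene body counts more closely (r = 0.94 over 11725 genes in WT 3) than RefSeq lengths (r = 0.921).

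All 36321 windows of 12107 genes were fitted together with limma 3.58.1 (voom) after edgeR 4.0.16 TMM in R 4.3.3, with the pair as a block, two-sided, with Benjamini-Hochberg adjustment and 0.1 as the limit for a call. The ratio was log2((promoter + 0.5)/(gene body + 0.5)) for the 12096 genes that averaged 10 or more counts per window, tested with limma with a trend. Same-numbered libraries deviated together in each window type and pair (correlations of 0.562 to 0.876 after removing group means), so the numbers, which the study gives as biological replicate pairs, were taken as pairs. No libraries were copies of each other. Alternatives were edgeR, DESeq2 1.42.0, no block, 4 scalings or filters, the deposited log2 values, no X and Y genes, members free of overlap, other ratio settings and leaving out libraries or pairs.

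The members, lists and role labels were chosen with earlier results of these data known. Members named are the 4 with the smallest p in each window and the ratio, the 3 highest and 3 lowest in promoter density, gene body density and ratio, and Mrpl12, Mrps12, Mrps18a, Mrps18b, Mrps18c, Mrps30 and Mrps36, with the gene of smallest p from each list, except 1 that is not reported here. Splits by gene length, start distance and divergent neighbour, and the pair counts under other scalings, were added after the data had been seen. Counts carry counting error, which is largest for windows with few reads, and PCR copies are not independent molecules.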

Additional observations from a re-analysis of the deposited data

How the results depend on the processing

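Without the replicate block, limma-voom called 0 members and 0 of all windows, against 49 windows (44 higher in KO) with it, and edgeR and DESeq2 called no member. All windows called numbered 74 with TMM and fit within each window type, 20 on library totals, 20 (11 higher) with TMM on gene bodies of lowest signal, 125 without X and Y genes, and 11 (without pair 2) to 546 (without KO 1) with 1 library or pair left out, including 382 without pair 1, 298 without pair 3 and 51 without WT 2. Member promoters called ranged from 0 to 2 when libraries or pairs were left out, with Mrpl45 and Mrps18b called without WT 1, KO 1 or pair 1. Those fits called 545, 546 and 382 of all windows. They are not separate, since a library without its partner gives no KO minus WT difference. Gene bodies called ranged from 0 to 1 (Mrps6 without KO 2). Ratios called ranged from 0 to 1 (Mrpl45 without WT 1, KO 1 or pair 1), and 1 (Mrpl34) was called at a minimum mean of 50 counts. TES regions called stayed at 0.

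With TMM on gene bodies of lowest signal the member medians were -0.12 in promoters, -0.045 in gene bodies and -0.15 in TES regions, against -0.06, -0.10 and -0.17 over all genes. TMM within TES windows gave 0.0060. Members free of overlap gave -0.093 in promoters and -0.13 in TES regions. With libraries or pairs left out, medians ran from -0.056 to 0.031 in promoters (highest without pair 3), 0.024 to 0.088 in gene bodies (highest without pair 1), -0.091 to -0.049 in TES regions and -0.14 to -0.040 for the ratio (the latter without WT 3, KO 3 or pair 3). Sign changes among named values came when libraries were left out. The Mrps6 gene body ran from -0.41 to 0.024, with 0.012 without WT 1 or KO 1 and 0.024 without pair 1. The Mrps12 promoter ran from -0.18 (without WT 1) to 0.035 (without pair 2), with 0.025 without WT 2, 0.015 without KO 2, 0.0032 without WT 3 or KO 3 and 0.016 without pair 3. Of 232 values of named genes under other settings, 231 kept their direction and side of the threshold. The cause of these changes was not tested. Depth limits most the promoters with the fewest reads over the 6 libraries, those of Mrps24, Mrpl23, Mrpl20, Mrpl1 and Mrpl11.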
